A study of Mus musculus with 8 samples.

Results

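The 7 genes described here carry or shape the electrical currents that start and spread the heartbeat, and they were chosen by name from the 50599 records in each library. They are Scn4b, Hcn2, Hcn4, Gja1, Gja5, Gjc1 and Cacna1h, and all 7 had counts in every library and entered the test. RNA was sequenced from whole hearts of 12-week-old male mice on a C57BL/6N background, with 4 wildtype and 4 Lrpprc knockout animals and 1 library each. Per the study's methods, the wildtype animals carried the floxed Lrpprc alleles (loxP/loxP) without Cre, and the knockout animals carried the same alleles with Cre, which removes the gene, encoding an RNA-binding protein of mitochondria, in heart and skeletal muscle. All 8 animals therefore share the floxed alleles, and only the knockout animals carry Cre, so loss of Lrpprc and presence of Cre cannot be told apart. The Cre driver is not given in the sources used here, and the cells of the heart that it does not reach keep the gene.

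The heartbeat starts in the sinus node, where HCN channels and T-type calcium channels help to bring the membrane to threshold, and it runs through the atria, the atrioventricular node and the Purkinje fibres to the working ventricle. Sodium channels carry the upstroke in the atria, the Purkinje fibres and the working ventricle, and connexins form the gap junctions through which current passes from cell to cell. Scn4b encodes a beta subunit that modifies the gating of the cardiac sodium channel. Hcn4 is the leading pacemaker channel of the sinus node, Hcn2 is its relative in working myocardium, and Cacna1h encodes a T-type calcium channel. Gja1 is the main connexin of the working ventricle, Gja5 that of the atria and the Purkinje system, and Gjc1 that of the nodes.

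Promoter sequences from RefSeq (GRCm38.p6, 250 bases before to 50 after the annotated start) could be matched for 5 of the 7 genes. The 3 shown belong to genes that were lower in the knockout libraries. Capitals mark matches, on either strand, to 4 motifs: the T-box motif AGGTGT, the GATA motif AGATAA, the NKX motif TNAAGTG and the ATF4-CEBP motif TGATGNAA.
Scn4b, chr9:45138374-45138673, plus strand: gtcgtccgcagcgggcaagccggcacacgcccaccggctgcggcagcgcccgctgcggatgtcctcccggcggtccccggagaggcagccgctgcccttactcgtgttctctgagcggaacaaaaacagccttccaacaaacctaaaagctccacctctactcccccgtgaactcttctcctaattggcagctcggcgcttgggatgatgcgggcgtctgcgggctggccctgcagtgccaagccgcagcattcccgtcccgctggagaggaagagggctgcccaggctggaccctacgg
Hcn4, chr9:58822699-58822998, plus strand: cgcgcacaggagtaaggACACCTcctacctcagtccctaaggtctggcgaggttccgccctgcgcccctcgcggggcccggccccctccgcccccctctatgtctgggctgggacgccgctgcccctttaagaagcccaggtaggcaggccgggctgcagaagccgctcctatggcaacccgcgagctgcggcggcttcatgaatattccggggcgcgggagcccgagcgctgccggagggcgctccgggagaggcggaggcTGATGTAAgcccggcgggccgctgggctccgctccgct
Gja5, chr3:97032152-97032451, plus strand: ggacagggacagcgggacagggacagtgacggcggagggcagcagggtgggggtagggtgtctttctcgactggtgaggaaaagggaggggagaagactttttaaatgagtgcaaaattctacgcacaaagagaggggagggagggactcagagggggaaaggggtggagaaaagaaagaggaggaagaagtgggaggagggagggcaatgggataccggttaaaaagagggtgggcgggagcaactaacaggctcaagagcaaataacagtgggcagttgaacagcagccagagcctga
The Hcn4 window held a T-box match on the minus strand, 233 bases before the start, and an ATF4-CEBP match on the plus strand, 12 bases after it, and these did not overlap. Of the 32851 promoters of this length in the table, 13.7% held the T-box motif and 3.97% the ATF4-CEBP motif. The Scn4b, Gja5 and Hcn2 windows held none of the 4 motifs, and the Gja1 window held 1 GATA match, a motif found in 11.2% of all promoters. The NKX motif, found in 11.5% of all promoters, had no match in the 5 windows. The start of the GENCODE gene lay 229 bases upstream of the RefSeq start for Scn4b, 463 bases downstream for Hcn4 and 127709 bases upstream for Gja5, so these windows are those of 1 annotated start each.

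The libraries held 35218541 to 47743376 expected counts, which is the number of fragments that the quantifier assigned to each gene. Levels within a gene are given as normalised counts, which are expected counts divided by a size factor for the library and corrected for transcript length. Lrpprc, the targeted gene, had 3607, 3946, 3424 and 3682 normalised counts in wildtype libraries 1 to 4 and 597, 504, 605 and 601 in knockout libraries 1 to 4. It was 6.35-fold lower (log2 fold change -2.67 ± 0.10, SE, adjusted p = 3.77e-153), in the direction of the labels. Mitochondrial rRNA took 44.0% to 46.9% of the counts in wildtype libraries and 65.6% to 67.8% in knockout libraries, so the scaling between libraries sets the direction of small changes. With the median-of-ratios scaling used here, 3628 of 19959 tested genes were called higher and 3100 lower. Scaling to total counts gave 1924 higher and 5912 lower, a shift of the median gene by -0.30 on the log2 scale, and scaling to total counts without mitochondrial rRNA gave 7950 higher and 1111 lower, a shift of 0.43. Markers of heart muscle were abundant in all libraries, with a summed level of 1043546 to 1159295 normalised counts in wildtype and 494354 to 649048 in knockout libraries, and 7 of the 8 were lower in the knockout.

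Of the 7 genes, 4 were lower in the knockout libraries (Scn4b, Hcn4, Cacna1h and Gja5), 0 were higher, and 3 did not pass the test (Gja1, Gjc1 and Hcn2). Calls used DESeq2 with an adjusted p under 0.05, and edgeR, like DESeq2 at an unadjusted p under 0.05, also gave 4 lower and 0 higher. Across all tested genes, 33.7% were called in either direction, 15.5% lower and 18.2% higher. These shares are for DESeq2 at an adjusted p under 0.05, and none are given for edgeR or the unadjusted p. In the same 4 genes, every knockout library lay below every wildtype library, which was true of 16.4% of all tested genes, while 0 of the 7 had every knockout library above every wildtype library, against 16.7% of all. The samples are whole hearts, so fewer cells of a type and less RNA per cell cannot be told apart.

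**Figure D1:**
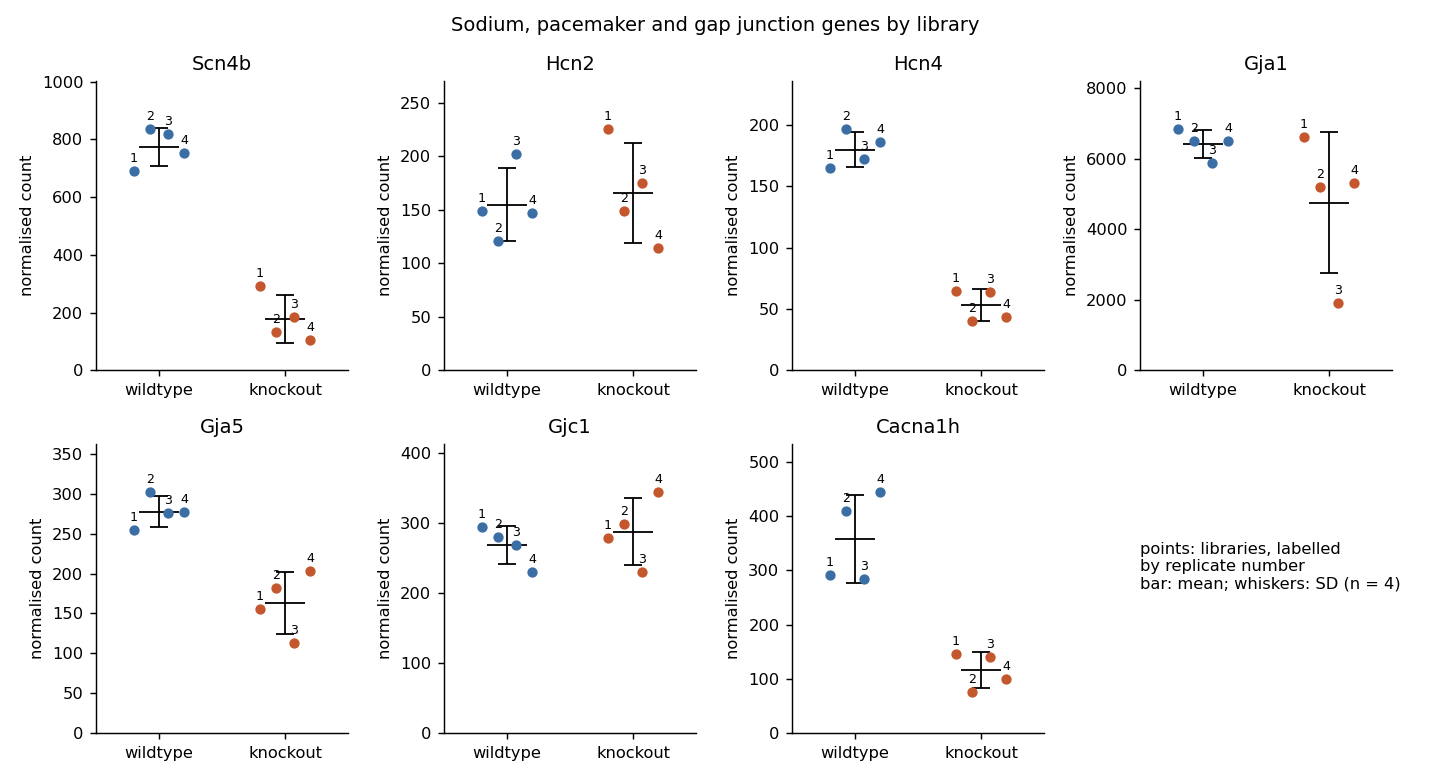
Normalised counts (y axis, linear and starting at 0) of the 7 genes in each library, with the mean and SD of 4 libraries per group; numbers at the points are replicate numbers. Scn4b, Hcn4, Cacna1h and Gja5 show no overlap between the groups, and Gja1 has a single low knockout library at 1905.

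Levels can be set side by side between genes as TPM, which is corrected for transcript length. TPM is relative to all RNA counted in a library, mitochondrial rRNA included, so differences between the groups also follow the share of that RNA. In wildtype hearts Gja1 stood highest at 61.5 ± 4.18 TPM (SD, n = 4), followed by Scn4b at 4.44 ± 0.384 and Gjc1 at 3.85 ± 0.457, whose ranges overlapped. Below them came Gja5 at 2.77 ± 0.193, Cacna1h at 1.74 ± 0.373, Hcn2 at 1.41 ± 0.314 and Hcn4 at 0.835 ± 0.0619 TPM, and of these neighbours only Cacna1h and Hcn2 overlapped. The order differed in knockout hearts, where Gja1 (41.9 ± 18.1 TPM) and Gjc1 (3.79 ± 0.890) led without overlap. Gja5 at 1.50 ± 0.453, Hcn2 at 1.37 ± 0.321, Scn4b at 0.915 ± 0.385 TPM each overlapped the next gene in the order. Cacna1h followed at 0.508 ± 0.120 TPM and Hcn4 lay lowest at 0.223 ± 0.0386 TPM, without overlap. Scn4b thus stood next to Gja1 in wildtype hearts and below Hcn2 in knockout hearts.

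Scn4b (ENSMUSG00000046480.6) lies on chromosome 9 (45138395 to 45154152, plus strand, GRCm38) and has 1 annotated transcript with 5 exons. Wildtype libraries 1 to 4 held 691, 835, 819 and 753 normalised counts of Scn4b, and knockout libraries 1 to 4 held 291, 132, 186 and 103. The groups did not overlap, and the highest knockout library, replicate 1, was still below the lowest wildtype library. The difference was 4.36-fold (log2 fold change -2.12 ± 0.27, SE, with a 95% confidence interval of -2.65 to -1.60, adjusted p = 4.95e-14), the largest fall among the 7 genes. Leaving out each library in turn gave log2 fold changes of -2.47 to -1.93.

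The sodium channel list holds 22 genes: pore and beta subunits, and proteins that anchor or regulate the channel. Of its 19 tested genes, 4 were higher, 4 lower and 11 did not pass, with a median log2 fold change of -0.20, against 0.005 over all tested genes. With total counts 2 were higher and 8 lower, and with total counts without mitochondrial rRNA 7 were higher and 3 lower. Scn4a, the pore of the skeletal muscle channel, fell from 623 ± 69.5 to 75.6 ± 41.9 normalised counts (log2 fold change -3.09 ± 0.37, adjusted p = 4.47e-15). Scn10a, a pore first known from sensory neurons, fell from 33.3 ± 7.08 to 9.91 ± 3.47 (log2 fold change -1.76 ± 0.41, adjusted p = 1.25e-04), and the beta subunit Scn3b rose from 19.6 ± 10.2 to 42.6 ± 16.6 (log2 fold change 1.15 ± 0.42, adjusted p = 0.0207), with overlap between the groups. The Scn3b call was lost without knockout replicate 3 (adjusted p = 0.106) and without wildtype replicates 1, 2 or 3 (0.093, 0.0876 and 0.0599).

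Hcn4 (ENSMUSG00000032338.9; chromosome 9, 58823412 to 58863175, plus strand) has 1 annotated transcript with 8 exons. It had 165, 197, 172 and 186 normalised counts in wildtype libraries and 64.7, 40.4, 63.4 and 43.3 in knockout libraries. Each knockout library held less than the lowest wildtype library, and replicates 2 and 4 were the lowest. Hcn4 was 3.41-fold lower (log2 fold change -1.77 ± 0.21, 95% confidence interval -2.17 to -1.37, adjusted p = 2.57e-16), and the value lay between -1.88 and -1.66 with each library left out. It rested on 35 to 231 expected counts per library.

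Hcn2 (ENSMUSG00000020331.9; chromosome 10, 79716634 to 79736108, plus strand) had 149, 121, 202 and 147 normalised counts in wildtype and 225, 149, 175 and 114 in knockout libraries. The groups overlapped over most of their range, and the highest and the lowest of the 8 values were both from knockout hearts. The log2 fold change was 0.10 ± 0.24 (95% confidence interval -0.38 to 0.57, adjusted p = 0.808), an interval that leaves room for a change in either direction. The sign turned without knockout replicate 1 (-0.09) and without wildtype replicate 2 (-0.006).

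Hcn4 and Hcn2 were also set against each other within each library, a pair picked after the values were seen and therefore given with no test. A share compares genes within a library, so the scaling between libraries does not enter it. Hcn4 made up 36.1%, 45.3%, 30.2% and 39.3% of the summed TPM of both genes in wildtype libraries 1 to 4 and 12.6%, 12.3%, 15.6% and 16.3% in knockout libraries 1 to 4. The means were 37.7 ± 6.31% and 14.2 ± 2.02% (SD, n = 4 each), and the groups did not overlap.

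**Figure D2:**
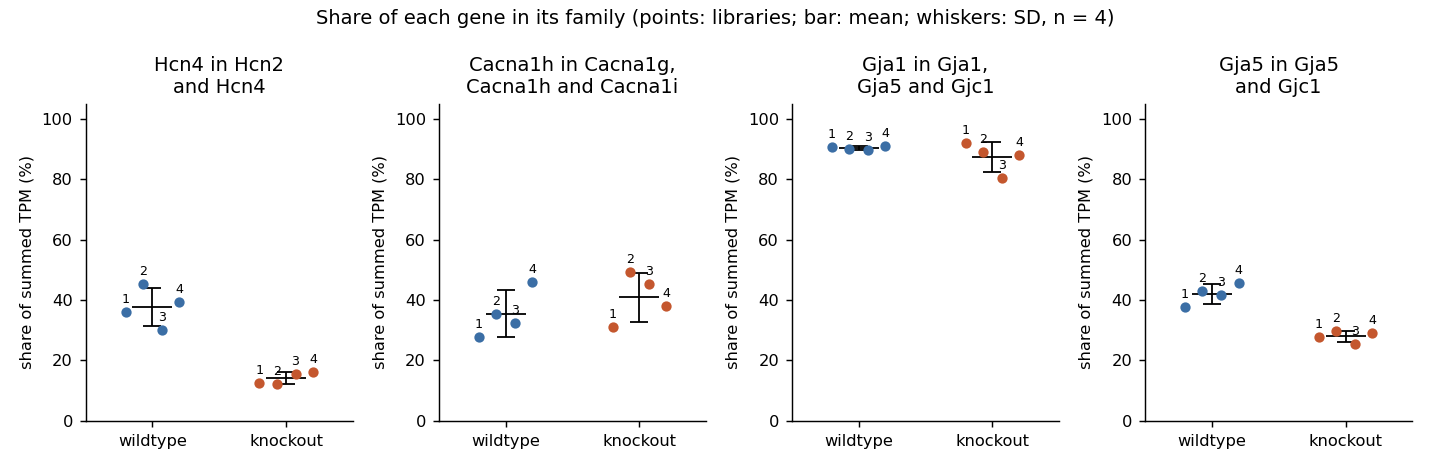
Share of summed TPM (y axis, percent) of Hcn4, Cacna1h, Gja1 and Gja5 beside the relatives named above each panel, in each library, with mean and SD of 4 libraries per group. The shares of Hcn4 and Gja5 do not overlap between wildtype and knockout, and those of Cacna1h and Gja1 do.

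The HCN and pacemaker list holds 11 genes: the channels, their partners, the cAMP-binding Popeye proteins and the calcium-stimulated adenylyl cyclases of the sinus node. Of its 10 tested genes, 2 were higher, 5 lower and 3 did not pass, with a median log2 fold change of -0.71. The median was -1.02 with total counts and -0.29 with total counts without mitochondrial rRNA, and 5 were lower under both. The adenylyl cyclases, which make the cAMP that opens HCN channels, were among the lowest. Adcy1 went from 313 ± 37.1 to 38.4 ± 13.2 normalised counts (log2 fold change -3.02 ± 0.23, adjusted p = 3.74e-38) and Adcy8 from 35.9 ± 9.71 to 4.13 ± 1.29 (log2 fold change -3.13 ± 0.52, adjusted p = 2.23e-08). Kcne2, a possible HCN partner, had no counts in any of the 8 libraries. Of the 3 Popeye genes, Bves fell from 883 ± 42.7 to 405 ± 154 normalised counts (log2 fold change -1.13, adjusted p = 3.55e-06). Popdc2 (log2 fold change 0.33) and Popdc3 (0.62) were the 2 called higher, and with total counts 0 of the list were called higher.

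Cacna1h (ENSMUSG00000024112.16; chromosome 17, 25374285 to 25433783, minus strand) has 10 annotated transcripts and up to 35 exons. Its normalised counts were 292, 411, 285 and 445 in wildtype and 145, 75.7, 140.5 and 100.1 in knockout libraries. Replicates 2 and 4 were the highest in wildtype and the lowest in knockout hearts, and the highest knockout value was well under the lowest wildtype value. Cacna1h was 3.12-fold lower (log2 fold change -1.64 ± 0.24, 95% confidence interval -2.12 to -1.16, adjusted p = 3.33e-10), with -1.77 to -1.48 when each library was left out. Its effective length, which follows the mix of transcripts that the quantifier assigned, ran from 4508 to 7607 bases over the 8 libraries, and without the length offset it was also called lower.

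Both T-type channels of the heart were lower. Cacna1g, the other one, had 504, 496, 397 and 348 normalised counts in wildtype and 215, 53.2, 114 and 107 in knockout libraries (log2 fold change -1.85 ± 0.33, adjusted p = 2.86e-07). Cacna1h contributed 35.4 ± 7.76% of the summed TPM of Cacna1g, Cacna1h and Cacna1i in wildtype and 40.9 ± 8.08% in knockout hearts. The difference of 5.48 percentage points did not pass the test (exact permutation test, two-sided, p = 0.343, and 0.343 adjusted over the 2 shares tested). It was 2.26 with expected counts in place of TPM, 2.69 without knockout replicate 2, 2.93 without wildtype replicate 1, 8.79 without knockout replicate 1 and 9.02 without wildtype replicate 4. The summed TPM of the 3 channels was 4.94 ± 0.626 in wildtype and 1.31 ± 0.529 in knockout hearts. This fall in TPM also follows the larger share of mitochondrial rRNA in knockout libraries.

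The voltage-gated calcium channel list holds 18 pore and auxiliary subunits, of which 17 were tested: 2 were higher, 7 lower and 8 did not pass, with a median log2 fold change of -1.04. With total counts 1 was higher and 9 lower (median -1.34). With total counts without mitochondrial rRNA 3 were higher and 6 lower (median -0.62). Cacnb1, the beta subunit best known from skeletal muscle, rose from 112 ± 37.8 to 867 ± 235 normalised counts (log2 fold change 2.94 ± 0.27, adjusted p = 3.82e-26). Cacna2d2, an auxiliary subunit, fell from 119.8 ± 44.9 to 24.8 ± 8.87 (log2 fold change -2.27 ± 0.35, adjusted p = 8.42e-10). The other gene called higher was Cacnb3, at 0.59 on the log2 scale (adjusted p = 0.0453), with overlap between the groups. Its call was lost with edgeR (adjusted p = 0.0571), with total counts (0.382) and without knockout replicates 2 or 4 (0.187 and 0.139) or wildtype replicates 1, 2 or 4 (0.118, 0.139 and 0.114).

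Gja5 (ENSMUSG00000057123.14; chromosome 3, 96904693 to 97077416, plus strand) has 3 annotated transcripts. Libraries 1 to 4 held 255, 303, 276 and 277 normalised counts in wildtype and 155, 182, 113 and 203 in knockout hearts. All knockout values lay below the lowest wildtype value, and knockout replicate 3 was the lowest. Gja5 was 1.69-fold lower (log2 fold change -0.76 ± 0.19, 95% confidence interval -1.12 to -0.40, adjusted p = 2.7e-04). With total counts without mitochondrial rRNA it was -0.33 and no longer called (adjusted p = 0.205). Its distance from the median gene was -0.78 under median of ratios and -0.77 under either form of total counts. That likeness is fixed by the arithmetic, since a change of scaling moves all genes by about the same amount. One of its transcripts (3668 bases) shares 856 bases at 99.4% identity with Zfp697, which was higher in the knockout (log2 fold change 1.71), so the split of reads between them is uncertain.

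Gja1 (ENSMUSG00000050953.10; chromosome 10, 56377330 to 56402513, plus strand) has 8 annotated transcripts. Its normalised counts were 6837, 6489, 5885 and 6497 in wildtype and 6618, 5203, 1905 and 5299 in knockout libraries. Knockout replicate 1 lay within the wildtype range, replicates 2 and 4 somewhat below it, and replicate 3 far below. Gja1 did not pass the test (log2 fold change -0.43 ± 0.28, 95% confidence interval -0.99 to 0.12, adjusted p = 0.246), and without knockout replicate 3 the log2 fold change was -0.17. The direction depended on the scaling: it was -0.71 with total counts (adjusted p = 0.0467) and 0.01 with total counts without mitochondrial rRNA (adjusted p = 0.984).

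In knockout replicate 3, some marker sums were low and others were not. The summed level of 8 endothelial markers was 12342 normalised counts there, against 15725 to 20663 in the other knockout and 16906 to 18438 in the wildtype libraries, although 0 of the 8 passed the DESeq2 test (2 higher and 2 lower at an unadjusted p under 0.05). Its fibroblast marker sum of 19212 was the lowest of the knockout libraries, which otherwise held 33049 to 64280, and lay just above the wildtype range of 18251 to 19005. The sum of 8 arterial endothelial markers was 1919 there, above the wildtype range of 1475 to 1630 and within the 1756 to 2039 of the knockout libraries. Col15a1 and Ints7, the 2 genes whose levels were most like that of Gja1 over the 8 libraries (Pearson's r 0.988 and 0.991 on the log2 scale), were picked for following Gja1 in these same libraries, so that their low level in that library is fixed by the choice. Whether the tissue sampled in that library bears on Gja1 was not tested.

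Gjc1 (ENSMUSG00000034520.14; chromosome 11, 102799579 to 102819700, minus strand), with 5 annotated transcripts, had 293, 279, 269 and 230.3 normalised counts in wildtype and 278, 298, 229 and 344 in knockout libraries. The knockout values spanned the whole wildtype range, and replicate 3 was again the lowest of its group. Its log2 fold change was 0.10 ± 0.16 (95% confidence interval -0.21 to 0.42, adjusted p = 0.669), with -0.18 for total counts and 0.54 for total counts without mitochondrial rRNA, the only scaling of those tried that called it (adjusted p = 0.00756). Relative to the median gene the 3 values were 0.09, 0.09 and 0.09, a likeness again fixed by the arithmetic.

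Among the connexins, the share of Gja1 did not pass the test. Gja1 supplied 90.6%, 89.8%, 89.5% and 91.1% of the summed TPM of the 3 genes in wildtype libraries and 92.0%, 89.1%, 80.5% and 87.9% in knockout libraries. These are means of 90.3 ± 0.733% and 87.4 ± 4.89% (exact permutation test, two-sided, p = 0.314, and 0.343 adjusted over the 2 shares tested). The difference of -2.90 percentage points became -0.61 without knockout replicate 3 and -4.43 without knockout replicate 1. Gja5 as a share of Gja5 and Gjc1 alone, a pair picked after the values were seen and given with no test, was 37.7%, 43.0%, 41.7% and 45.6% in wildtype and 27.9%, 29.7%, 25.5% and 29.1% in knockout libraries. The means were 42.0 ± 3.29% and 28.0 ± 1.83%, and the groups did not overlap.

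The connexin and pannexin list holds 22 genes, of which 5 had no counts in any library and 11 were tested: 3 were higher, 2 lower and 6 did not pass. Its median log2 fold change was -0.43 and turned to 0.27 with total counts without mitochondrial rRNA, where 4 were higher and 0 lower. Gja4, a connexin of arterial endothelium, had 98.6, 103, 128 and 137 normalised counts in wildtype and 149, 273, 191 and 298 in knockout libraries (log2 fold change 0.96 ± 0.24, adjusted p = 4.6e-04). Of the 8 arterial endothelial markers listed, 3 were higher (Gja4 itself, Sox17 and Sema3g) and 5 did not pass. The lowest of these was Dll4 (log2 fold change -0.60), and the median of the list was 0.10. The summed levels, of which Gja4 is a part, were 1475 to 1630 in wildtype and 1756 to 2039 normalised counts in knockout libraries. The part of arterial cells in the Gja4 change was not tested. Panx1, which forms large-pore channels in the membrane, rose from 25.5 ± 10.5 to 155 ± 39.6 (log2 fold change 2.62 ± 0.32, adjusted p = 1.14e-14), and the connexin Gja3 fell from 135 ± 9.07 to 87.1 ± 22.7 (log2 fold change -0.63 ± 0.21, adjusted p = 0.0104). The third gene called higher, Gjb5, had 0.868 to 1.61 normalised counts in wildtype libraries and 1.12, 10.4, 1.15 and 17.9 in knockout libraries (adjusted p = 0.0486), so that 2 of the 4 knockout libraries lay within the wildtype range. Its call was lost with total counts (adjusted p = 0.074) and without knockout replicate 2 (0.129) or any 1 of the 4 wildtype libraries (0.0809 to 0.106). It had no adjusted p without knockout replicate 4 or with edgeR, since low-count filters left it out.

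Connexins sit in the intercalated disc, the junction between heart muscle cells, and of the 15 genes listed for it, all tested, 5 were higher, 5 lower and 5 did not pass, with a median log2 fold change of 0.006. Xirp2, an actin-binding protein of the disc, rose from 26324 ± 1503 to 84372 ± 15111 normalised counts (log2 fold change 1.68 ± 0.13, adjusted p = 1.52e-34), and the plaque protein Pkp2 from 2269 ± 141 to 4171 ± 543 (log2 fold change 0.88 ± 0.11, adjusted p = 5.16e-13). Ctnna3, a catenin of the disc, fell from 1491 ± 253 to 761 ± 77.8 (log2 fold change -0.97 ± 0.15, adjusted p = 2.46e-09). The split of this list moved with the scaling, to 2 higher and 8 lower with total counts and 9 higher and 2 lower without mitochondrial rRNA.

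**Figure D3:**
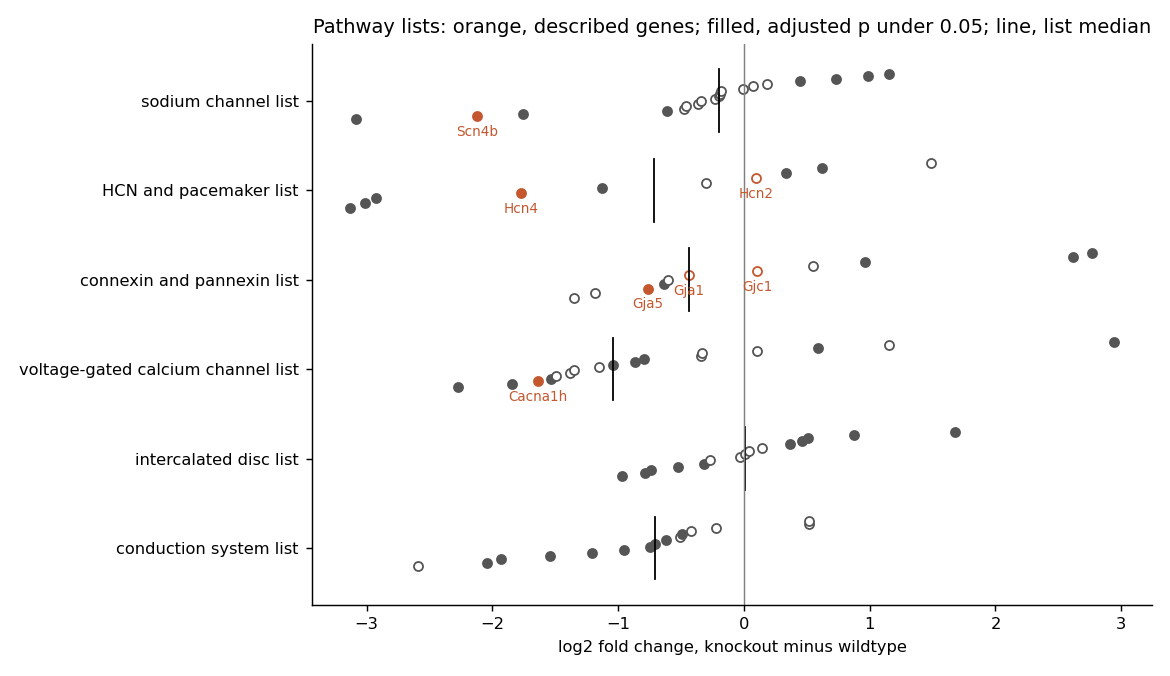
Log2 fold change (x axis, knockout minus wildtype) of every tested gene of the 6 pathway lists; orange marks the described genes, filled points have an adjusted p under 0.05, and the black line is the list median. The medians run from -1.04 for the voltage-gated calcium channels to 0.006 for the intercalated disc.

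The conduction system list holds 16 transcription factors and cell markers of the nodes and the ventricular conduction fibres. Of its 15 tested genes 9 were lower, 0 higher and 6 did not pass in DESeq2, with a median log2 fold change of -0.71, 10 were lower and 0 higher at an unadjusted p under 0.05, and edgeR gave 9 lower and 0 higher of 14. With total counts without mitochondrial rRNA, 2 were higher and 5 lower. Hopx, a homeodomain protein found in conduction fibres, fell from 2057 ± 194 to 499 ± 99.4 normalised counts (log2 fold change -2.05 ± 0.16, adjusted p = 4.87e-37). Cntn2, a marker of the Purkinje system, fell from 213 ± 23.8 to 73.5 ± 27.5 (log2 fold change -1.54 ± 0.26, adjusted p = 4.23e-08) and Cpne5 from 133 ± 16.6 to 35.5 ± 9.79 (log2 fold change -1.93 ± 0.24, adjusted p = 8.86e-14), which was -1.13 without the length offset.

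Hcn4 is concentrated in the nodes and Gja5 in the atria and the Purkinje system, and markers of these tissues are given beside them. The 8 markers of sinus node and conduction cells, all of which also stand in the list above, had a summed level of 1348 to 1583 normalised counts in wildtype and 639 to 1099 in knockout libraries. Of the 7 tested, 4 were lower (Tbx3, Cntn2, Smoc2 and Cpne5). Smoc2 led the sum, at 871 ± 60.5 in wildtype and 519 ± 166 in knockout hearts. Tbx18 (log2 fold change 0.52) and Shox2 (-0.51) did not pass, nor did Vsnl1. Isl1 and Vsnl1, which mark the sinus node, had 0 to 5.26 and 0 to 8.04 normalised counts. Of 8 atrial markers 3 were lower (Myl7, Sln and Stard10), 2 higher (Nppa and Pam) and 3 did not pass. The sum of all 8 was 42386 to 44432 in wildtype and 64923 to 83371 in knockout libraries, led by Nppa and Pam. The sum of Myl4, Myl7, Sln and Bmp10 went the other way, from 9980 to 12038 in wildtype to 1268 to 6012 in knockout libraries. This set was chosen after the values were seen, so its fall cannot stand for the list, and Myl4 and Bmp10 did not pass. Its lowest value was in knockout replicate 3. Of the 8 heart muscle markers given above, 7 were also lower, with a median log2 fold change of -0.96. How far the amount of atrial tissue, conduction tissue or heart muscle bears on the changes of Hcn4, Gja5, Cacna1h and Scn4b was not tested.

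**Figure D4:**
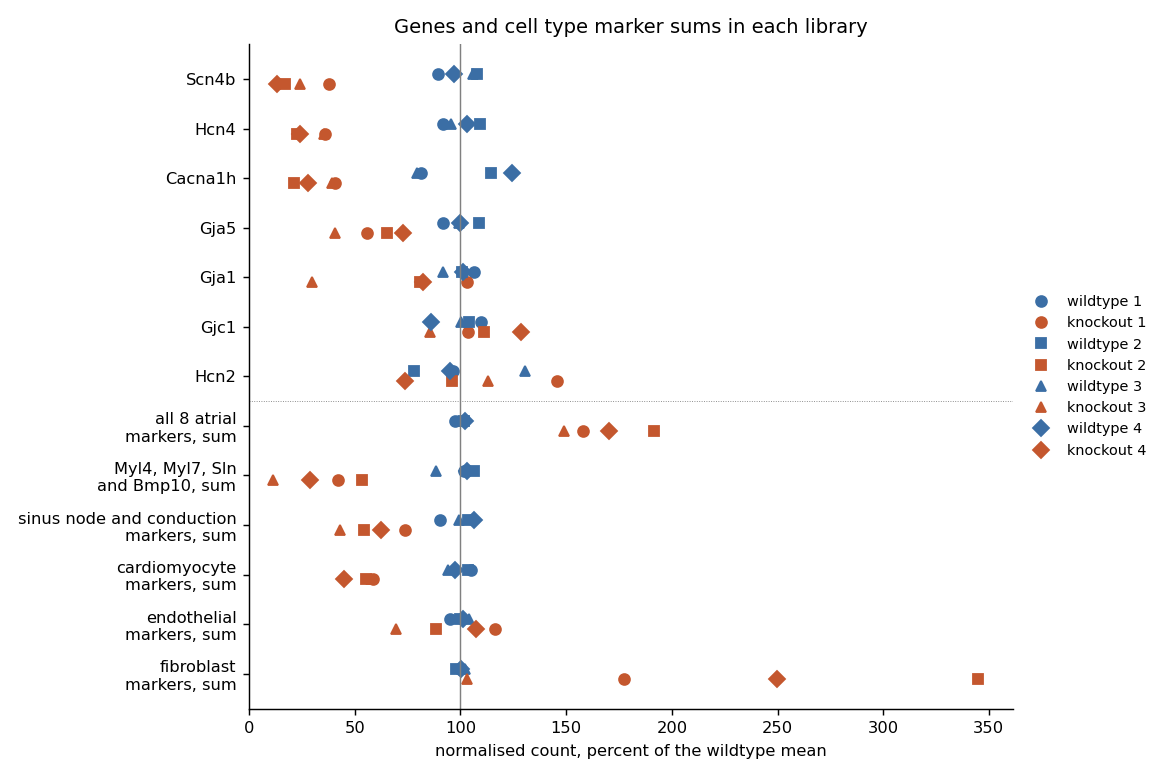
Normalised counts of the 7 genes and summed counts of 6 marker sets in each library, as percent of the wildtype mean (x axis); blue symbols are wildtype and orange symbols knockout, with 1 symbol shape per replicate number. Scn4b, Hcn4, Cacna1h and Gja5 lie at 13.4% to 73.0% in the knockout libraries. All 8 atrial markers together lie at 149% to 191%. The sum of Myl4, Myl7, Sln and Bmp10 lies at 11.2% to 53.2%, a subset chosen after the values were seen, so it cannot stand for the list.

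The remaining marker lists moved as follows. Fibroblast markers were higher for 4 of 8, macrophage markers for 6 of 8, with summed levels of 4206 to 5780 normalised counts in wildtype and 4230 to 10830 in knockout libraries. Smooth muscle and pericyte markers were lower for 2 of 8, with sums of 18721 to 20095 in wildtype and 13401 to 17574 in knockout libraries. Schwann cell and neuron markers had 1 higher and 2 lower of 6 tested, with sums of 171 to 200 and 208 to 309. Skeletal muscle markers had 2 higher and 2 lower of 5 tested, with sums of 28266 to 35737 and 26148 to 53702, and Acta1 rose from 3569 ± 1939 to 19262 ± 8196 normalised counts (log2 fold change 2.43) and Tnnt3 from 2.85 ± 1.65 to 18.6 ± 9.28 (2.71, and 3.52 without the length offset). Ckm (-0.54) and Atp2a1 (-2.31) were lower, Mylpf did not pass, and Myh4, Myh2 and Tnnc2 were near 0. The part of skeletal muscle in the changes of Scn4a and Cacnb1 was not tested.

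The 7 genes varied more among knockout than among wildtype hearts, as did most genes. The coefficient of variation was higher in the knockout group for 7 of 7, and for 78.2% of the 10440 tested genes that averaged 100 normalised counts or more. It was 46.5% against 8.51% for Scn4b, 42.2% against 6.16% for Gja1, 24.3% against 7.81% for Hcn4 and 23.7% against 6.97% for Gja5. The knockout value for Gja1 came with 1 far lower library, replicate 3 (1905 normalised counts, against 5203 to 6618 in the others). Smaller gaps were seen for Cacna1h (28.8% against 22.8%), Hcn2 (28.3% against 22.0%) and Gjc1 (16.5% against 10.1%).

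After the group means were removed, some of the genes varied alike over the 8 libraries, given as a description of libraries that share their scaling. Hcn4 varied with Cacna1h (r = 0.893) and with Scn4b (r = 0.850), Scn4b also with Hcn2 (r = 0.780), and Gja5 with Gjc1 (r = 0.782) and Gja1 (r = 0.765). Between these sets the values were negative, such as -0.663 for Hcn4 with Gja5 and -0.671 for Hcn4 with Gjc1. Scn4b and Gja1 showed almost no relation (r = -0.003). Knockout replicate 3 was the lowest of its group for Gja1, Gja5 and Gjc1, at 29.6%, 40.8% and 85.6% of the wildtype mean. How far the values among the connexins rest on that library was not tested.

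For each gene, the 2 genes most like it were sought among 10447 genes averaging 100 normalised counts or more, by Pearson's r of log2(normalised count + 1) over the 8 libraries. These were Tmod1 (r = 0.995) and Atp5k (0.994) for Scn4b, Ak1 (0.996) and Plxnb1 (0.995) for Hcn4, and Tmem109 (0.991) and 9430037G07Rik (0.990) for Cacna1h. For Gja5 they were Rps6ka2 (0.990) and Zfp536 (0.989). Since r was taken over both groups and these 4 genes do not overlap between them, the choice itself fixes that the 8 genes are lower in the knockout. Their log2 fold changes were -1.96 (Plxnb1) to -0.40 (Tmod1), and with the group means removed r was 0.925 to 0.968, on which the choice also bears. Hcn2 was most like Cmtr1 (0.952) and Trex1 (0.943), and Gjc1 most like Cald1 (0.903) and Nvl (0.896), none of which passed the test. Gja1 had Ints7 and Col15a1, given above.

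Relative to the median gene, the 3 scalings gave nearly the same values. This is fixed by the arithmetic, since a change of scaling moves all genes by about the same amount. It is no test of stability. Scn4b stood at -2.14, -2.17 and -2.15 on the log2 scale with median of ratios, total counts and total counts without mitochondrial rRNA, Hcn4 -1.79, -1.80 and -1.79, and Cacna1h -1.66, -1.67 and -1.67. These 3 genes were called lower under all alternatives tried, including edgeR, and with each library left out. Gja1 stood at -0.45, -0.43 and -0.43 relative to the median gene, and Hcn2 at 0.08, 0.06 and 0.07.

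**Figure D5:**
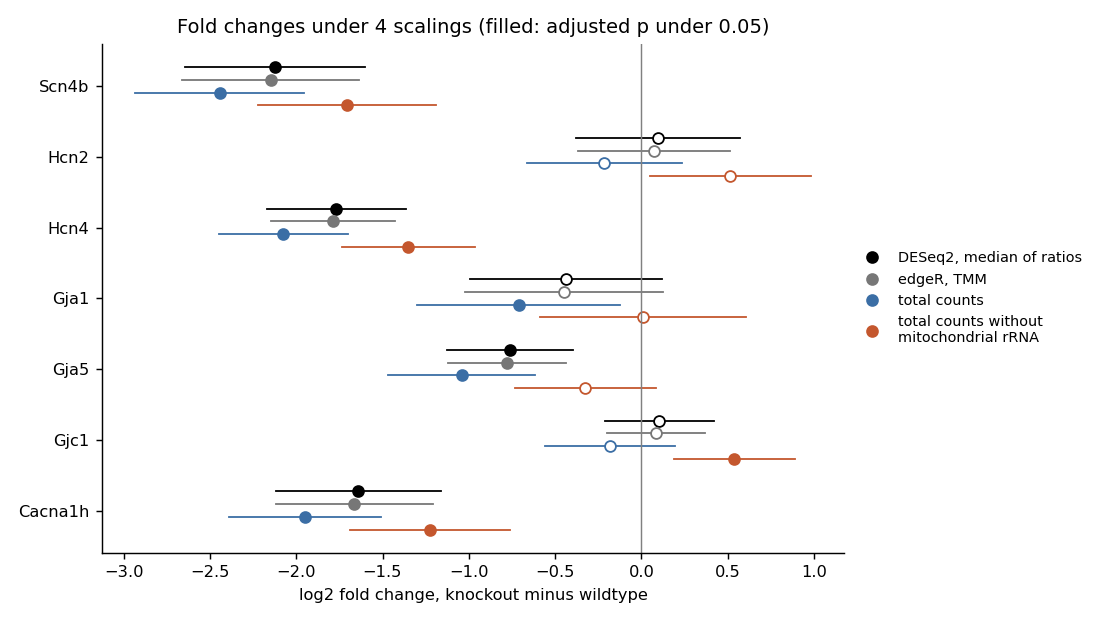
Log2 fold change (x axis, knockout minus wildtype) of the 7 genes with 95% confidence intervals under 4 scalings; filled points have an adjusted p under 0.05. Scn4b, Hcn4 and Cacna1h are filled and negative under all 4, Gja5 is open only without mitochondrial rRNA, and Gja1, Gjc1 and Hcn2 cross 0 between scalings.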

How the data were processed

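Total RNA from whole hearts (4 wildtype and 4 Lrpprc knockout mice, grouped by the labels) was depleted of cytoplasmic rRNA, primed with random hexamers and sequenced in reverse-stranded pairs. The authors estimated expected counts and TPM with RSEM 1.2.31 and Bowtie2 on GENCODE mouse transcripts, with custom mitochondrial sequences to which 50 A bases had been added. The deposited expected counts were rounded and tested with DESeq2 1.42.0 (effective lengths as offset, median-of-ratios size factors, genotype only, Wald test, Benjamini-Hochberg over all genes). The study also names DESeq2. Alternatives were edgeR 4.0.16 with TMM, no offset, a filter of 10 counts in 4 libraries, nuclear size factors, total counts with and without mitochondrial rRNA, the replicate number as a block, and each library left out. Of 4 shares of deposited TPM, 2 were compared by exact permutation and 2, picked after the values were seen, were described with no test.

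Symbols matched 50339 of 50563 Ensembl identifiers. The 7 genes, the gene lists and the markers were chosen with earlier results of these data known. Also named were Lrpprc, Gja4 and Cacna1g whatever their values, the 3 called genes of each pathway list (not of the 7, mean of at least 10 counts) with the largest fold change, and the 2 genes most like each of the 7. Popdc2, Popdc3, Bves, Cacnb3, Gjb5 and single marker genes were named after their values were seen, to complete a count. Some genes that this rule names, and shares that rest on them, are not reported here. Expected-count totals of 35218541 to 47743376 limit the precision. The authors' comparison table (means, fold changes and p-values) and 8 columns of normalised counts that match no sample label were not used. DESeq2 and edgeR were tested on simulated data. Coordinates are GRCm38 (GENCODE M21). Near copies were sought with blastn (at least 95% identity over 200 bases). Opposite-strand neighbours of Gja5 and Cacna1h were separated by strand.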

Additional observations from a re-analysis of the deposited data

Results flagged for a closer look

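Dixon's rule asks whether the gap of the highest or lowest library to its nearest neighbour takes more of its group's range than the 95% critical value. It was applied to the normalised counts of the 7 genes and of the list and marker genes named above, to the marker sums and to the 4 shares. Of 129 groups of 4 libraries, 11 passed it, and chance alone flags about 1 in 20 groups (6.45 of 129). Lrpprc was lower in knockout replicate 2 (504 normalised counts) than in the other knockout libraries (597 to 605). Pkp2 was higher in knockout replicate 3 (4984) than in the others (3868 to 3918). Bmp10 was higher in knockout replicate 2 (2545) than in the others (546 to 688). Hopx was lower in wildtype replicate 3 (1769) than in the other wildtype libraries (2120 to 2183). Bves was lower in wildtype replicate 4 (819) than in the others (902 to 908), and the sum of Schwann cell and neuron markers was 171 there against 196 to 200. The remaining 5 groups were of genes with few counts. In wildtype libraries, Isl1 stood out in replicate 2 (5.26 against 0 to 0.48), Vsnl1 in replicate 4 (8.04 against 1.06 to 1.94), Myh4 in replicate 1 (1.07 against 0) and Myh2 also in replicate 1 (0 against 0.75 to 0.90). In knockout libraries, Tnnc2 stood out in replicate 4 (1.48 against 0). None of the 7 conduction genes or the 4 shares met this rule, and the low Gja1 value of knockout replicate 3 stayed under it.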

How the results depend on the processing

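Scn4b, Hcn4 and Cacna1h were called lower under every alternative. Apart from the fits with a library left out, their log2 fold changes were -2.44 to -1.71, -2.07 to -1.35 and -1.95 to -1.22. With total counts, Hcn2 was -0.21 and Gjc1 -0.18, each opposite in sign to the reported value, and Gja1 was called at -0.71. With total counts without mitochondrial rRNA, Gja1 was 0.0098, and Gja5 was -0.33 and no longer called. Gjc1 was 0.54 there and called, so 1 of the 7 was called higher, beside 7950 of all 20459 tested genes. These moves follow the shift of the median gene (-0.30 and 0.43). The count called lower was 5 with total counts, where 5912 of all 19961 tested genes were lower. It was 3 without mitochondrial rRNA, where 1111 of 20459 were lower. Leaving out 1 library gave -0.09 to 0.25 for Hcn2, opposite in sign without knockout replicate 1 (-0.088) and wildtype replicate 2 (-0.0059), -0.64 to -0.17 for Gja1, -0.88 to -0.62 for Gja5 and 0.005 to 0.20 for Gjc1. Of the genes named from the lists, Gja3 was no longer called with total counts without mitochondrial rRNA (-0.21), nor Scn3b with total counts (0.85) or without knockout replicate 3 (0.86) or wildtype replicates 1, 2 or 3 (0.99, 0.99 and 1.15). Cacnb3 and Gjb5 were no longer called with total counts (0.31 and 2.54), with the replicate block (0.57 and 2.18), without knockout replicate 2 (0.46 and 2.59), Cacnb3 also without knockout replicate 4 (0.53), or without single wildtype libraries (Cacnb3 0.53 to 0.58 without replicates 1, 2 or 4, Gjb5 without any 1 of the 4, at adjusted p of 0.0809 to 0.106), and Cacnb3 not with edgeR (0.57). With total counts Popdc2 (0.032), Popdc3 (0.31), Sema3g (0.22) and Pam (0.27) were not called, nor was Ckm without mitochondrial rRNA (-0.12). Ctnna3 was -0.55 without mitochondrial rRNA, Pkp2 0.58 with total counts and Cpne5 -1.13 and Tnnt3 3.52 without the length offset, all still called. Tnnt3 had no value with edgeR or with the low-count filter, whose filters left it out.

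Replicate numbers did not pair the libraries (correlations of same-numbered deviations -0.052 to 0.086). The block changed no call of the 7 genes, with Gja1 at -0.56, and the exact sign-flip test of 4 pairs cannot go below 0.125 for the 2 shares tested. With expected counts in place of TPM, the share of Hcn4 beside Hcn2 differed by -29.6 percentage points against -23.5 with TPM.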
